A study of Homo sapiens with 2 samples.

Results

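The regions described here are the narrow peaks of a brachyury ChIP-seq list, selected on a measured value, a deposited width (end minus start) under 700 bp. A total of 821 of 10342 peaks met this rule, which is 7.94% of the list (Wilson 95% interval 7.43 to 8.48). They were compared with the 8980 peaks of 700 to under 1500 bp, named ordinary peaks below, while the other 541 peaks were at least 1500 bp wide and are named wide peaks. Chromatin came from unmodified MDA-MB-231 cells, a triple-negative breast cancer cell line in long use, with no added treatment or allele, in which the study describes a high endogenous level of brachyury. The series holds 1 library for which the labels give only the cell line, taken as the immunoprecipitated one because the list is named as immunoprecipitation against input, and 1 input library of the same line without antibody. Peaks were called once on this pair, so no peak has a replicate, the depth of both libraries is unknown, and every interval below covers counting error only.

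Brachyury, a T-box transcription factor, directs posterior mesoderm and notochord formation in the embryo, and in carcinoma lines it has been tied to epithelial-mesenchymal transition. T-box factors bind a short half-site, alone or as an inverted pair. A factor held at one short site generally gives a compact peak, and widely spread chromatin marks give broad ones. The width of a peak also follows from the length of the sequenced fragments, the number of reads and the rules of the peak caller. Genes at the peaks, their base composition and the T-box half-site were not analysed here, because the gene and sequence tables at hand are on GRCh38 and the notes of the submitters name hg19. For the same reason no peak sequence is shown.

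Narrow peaks were short by a moderate margin and clustered under the limit. Their widths ran from 392 to 699 bp with a median of 632 bp and quartiles of 574 and 670 bp, against a median of 965 bp in ordinary peaks. Only 62 were narrower than 500 bp and 214 were 500 to under 600 bp, while 545 were 600 to under 700 bp. Together they covered 505 kb, which is 4.88% of all bases under peaks. The limit did not fall in a gap of the width distribution, since 181 peaks of 675 to under 700 bp faced 220 peaks of 700 to under 725 bp. At the limit itself, the 11 peaks of 699 bp had a median score of 69.3 (range 54.6 to 93.8) and the 7 peaks of 700 bp a median score of 62.0 (range 54.2 to 77.1).

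The score was taken to be the p-value of the peak on a scale of -10 x log10, on which the calling limit of 1e-05 corresponds to 50. It was made from the same call as the width, and is therefore given without a test. Narrow peaks had a median score of 69.8 (95% interval 69.3 to 69.8, n = 821), while ordinary peaks had 57.7 (95% interval 57.5 to 58.0, n = 8980). A score of at least 100 was found in 78 narrow peaks (9.50%, Wilson 95% interval 7.68 to 11.7) and in 151 ordinary peaks (1.68%, 1.44 to 1.97). Few narrow peaks lay close to the limit, since 48 of them (5.85%) scored under 55, against 3172 ordinary peaks (35.3%). Among narrow peaks the score fell as the width rose (Spearman's rho = -0.46 across 821 peaks of 1 call), whereas in ordinary peaks it first fell and then rose. There the median score went from 61.3 in the 220 peaks of 700 to under 725 bp to 55.5 in the 2364 peaks of 900 to under 1000 bp, and to 63.0 in the 1002 peaks of 1200 to under 1500 bp.

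**Figure D1:**
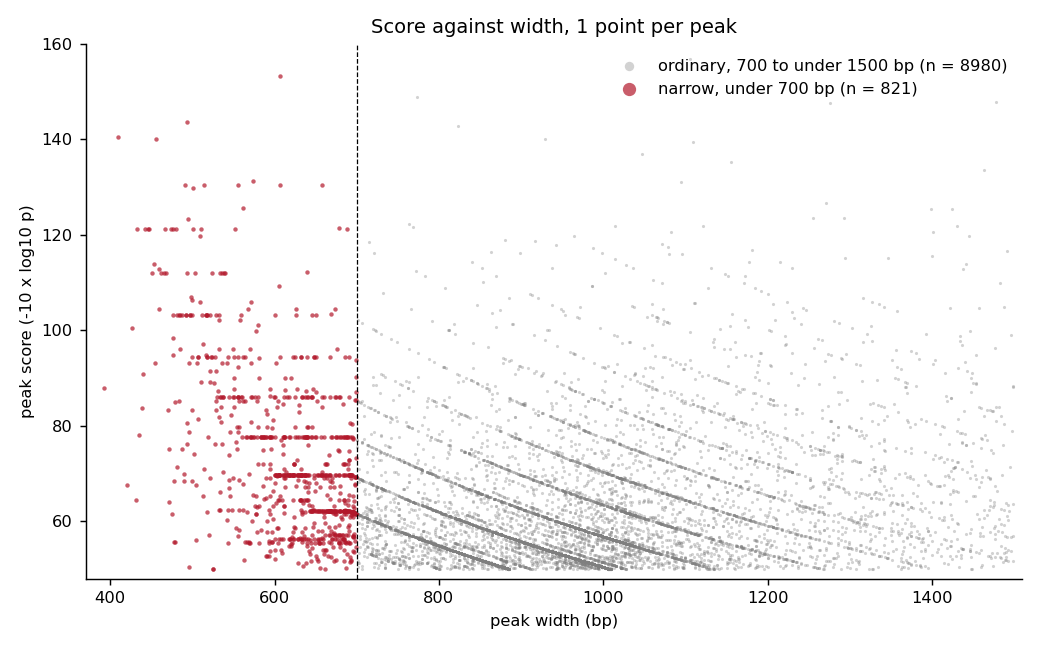
Peak score (-10 x log10 p, vertical axis) against peak width in bp (horizontal axis), with 1 point per peak, 821 narrow peaks in red and 8980 ordinary peaks in grey. The dashed line marks 700 bp, and 3 ordinary peaks above a score of 160 lie outside the axis. Points fall on level bands among narrow peaks and on bands that slope down with width among ordinary peaks.

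The 10 narrow peaks with the highest scores lay on 10 different chromosomes and 7 of them were under 600 bp wide. The first, chr18:4178405-4179011 (607 bp), scored 153.24 and was 302 kb from the nearest other peak. The second, chr6:32715827-32716319 (493 bp), scored 143.63 and lay only 580 bp from an ordinary peak of 1370 bp. The third, chr14:48748221-48748630, scored 140.49 and was also the second narrowest of the list at 410 bp. These leading peaks thus included both isolated ones and one with a close neighbour. The peaks chr5:144644478-144644933 (456 bp, score 140.08) and chr1:166768904-166769477 (574 bp, score 131.22) followed, with their nearest neighbours at 107 and 116 kb. The other 5 had exactly the same score, 130.56, at widths from 491 to 658 bp. They were chr19:33143041-33143531, chr2:164210806-164211319, chr4:116551791-116552346, chr10:53940208-53940814 and chrX:133956981-133957638. The last of these had no other peak within 903 kb, while the one on chromosome 19 had a narrow peak of 562 bp at 12.1 kb.

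The median score was highest in the narrowest class, at 103 in the 62 peaks under 500 bp. It was 79.1 in the 214 peaks of 500 to under 600 bp and 65.3 in the 545 peaks of 600 to under 700 bp. Among the 5 narrowest peaks, however, the smallest width did not go with the highest score. The narrowest peak of the list, chr6:100452054-100452445, was 392 bp wide and scored 88.06. After the peak on chromosome 14 named above came chr10:100739928-100740347 (420 bp, score 67.65), chr10:78056965-78057391 (427 bp, score 100.6) and chr5:23213923-23214354 (432 bp, score 64.6). The 5 narrowest peaks thus spread over scores from 64.6 to 140.49, and none of them had another peak within 100 kb.

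Many narrow peaks had exactly the same score. There were 7 values held by at least 20 narrow peaks each, and these accounted for 320 narrow peaks (39.0%). The commonest, 69.82, was held by 85 peaks of the list, all of them narrow and spread over 21 chromosomes. The value 62.13 was held by 61 narrow and 6 ordinary peaks, 77.79 by 61 narrow peaks and 86.02 by 39. One of the 7 values was held by 8 ordinary peaks (0.0891%). The values were picked from narrow peaks alone, so this contrast follows in part from the choice. Ordinary peaks had repeated scores of their own, with 17 values held by at least 20 of them each, the highest of these 57.7. The commonest, 51.47, was shared by 27 of 8980 peaks.

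Each repeated score set a lower limit to the width, and from 62.13 upwards this limit fell as the score rose. The narrowest of the 61 narrow peaks at 62.13 was 643 bp, that of the 85 peaks at 69.82 was 600 bp, and that of the 61 peaks at 77.79 was 565 bp. It was 530 bp at 86.02, 500 bp at 94.49 and 477 bp at 103.19. The widest narrow peak did not follow the score in this way, and was 692 bp at each of 62.13, 69.82 and 77.79. The value 56.27 stood apart, with 26 narrow peaks of 601 to 685 bp.

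**Figure D2:**
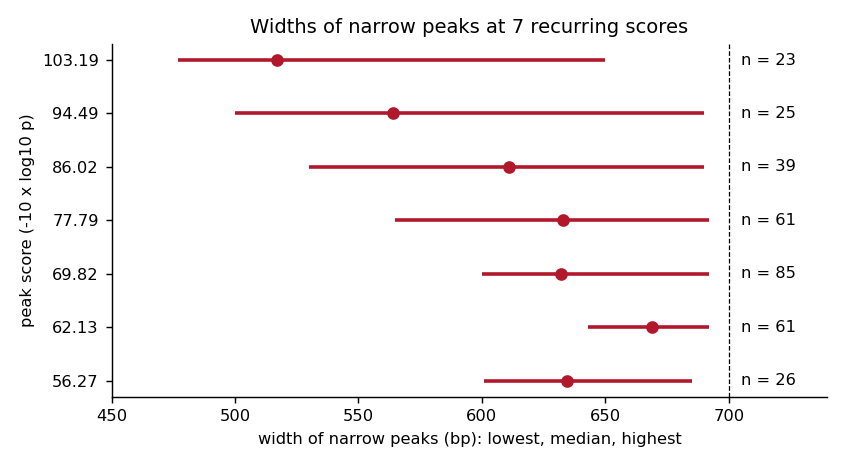
Width in bp (horizontal axis) of the narrow peaks at each of the 7 scores held by at least 20 narrow peaks (vertical axis, -10 x log10 p). Lines run from the narrowest to the widest peak, points mark the median, and n is the number of narrow peaks. From 62.13 to 103.19 the lower limit falls from 643 to 477 bp, while no line passes 692 bp.

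The level bands and their slope past the limit were then described with a single set of curves. Each curve was the Poisson probability, on the -10 x log10 scale, of exceeding a whole number, with a rate of 2.582 for all widths up to 692 bp and in proportion to the width above it. The rate was fitted to the narrow peaks and the width then to all peaks under 1500 bp, both after the bands had been seen. The shares of narrow and ordinary peaks below come from peaks used in the fit, and do not test it. Within 0.02 of a curve lay 358 of 821 narrow peaks (43.6%, Wilson 95% interval 40.3 to 47.0) and 5061 of 8980 ordinary peaks (56.4%, 55.3 to 57.4). Of the 541 wide peaks, which were left out of the fit, only 71 did so (13.1%, 10.5 to 16.2). The width was sharply set, since moving it to 691 or 693 bp left 19 or 24 ordinary peaks on the curves, and the next best width from 600 to 800 bp, 626 bp, left 798. Of the narrow peaks, 761 were at most 692 bp wide, where the curves are level, and 60 were wider, of which 33 lay on the sloping part. Up to 692 bp a curve gives the same score at every width, whereas above it a peak of the same whole number scores less the wider it is. How the caller scored these peaks is not stated in the sources used here.

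The whole numbers of the curves were then compared. On the curves, narrow peaks had a median whole number of 15 (range 12 to 22) and ordinary peaks a median of 15 (range 12 to 32). The commonest was 14 in both, with 93 narrow peaks (26.0% of those on the curves) and 1403 ordinary peaks (27.7%). The lowest, 12, was reached by 2 narrow and 24 ordinary peaks. Every listed peak scored at least 50, and above 692 bp the same whole number scored less the wider the peak. The lowest whole number that could be listed therefore rose with width, and the lowest found in wide peaks on the curves was 18. The medians of 15 thus come from ranges cut at different whole numbers, and do not show that the classes were alike in them. The median score on the curves was 77.8 in narrow and 57.6 in ordinary peaks. Of the 7 repeated scores, 6 lay on the curves, and 56.27 did not.

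Narrow peaks were listed on all 24 chromosomes, with only 1 on chromosome Y. On the 23 chromosomes with at least 50 peaks, their share of the peaks ranged from 4.60% on chromosome 21 (4 of 87, Wilson 95% interval 1.80 to 11.2) to 15% on chromosome X (15 of 100, 9.31 to 23.3). The interval lay above the share in the list, 7.94%, for 2 chromosomes, X and 4 (52 of 449, 11.6%, 8.94 to 14.9), and below it for chromosome 5 (50 of 886, 5.64%, 4.31 to 7.36). The other 20 chromosomes had intervals that included the share in the list. Chromosome 5 was also rich in wide peaks (143, 16.1% of its peaks), and chromosome X had none. With wide peaks left out of the count, the share on chromosome 5 was 6.73% (5.14 to 8.76), an interval that included the 8.38% of the list, while chromosomes X and 4 stayed above it. Per Mb of the span covered by the peaks of a chromosome, narrow peaks ranged from 0.103 on X to 0.453 on chromosome 13. Chromosome Y held 1 narrow peak among 4 peaks, which spanned only 3.48 Mb. Whether their reads stem from chromosome Y was not tested.

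Chromosomes also differed in how many of their narrow peaks lay on the curves. On chromosome 8 this was the case for 2 of 44 narrow peaks (4.55%, Wilson 95% interval 1.26 to 15.1), on chromosome 5 for 8 of 50 (16%, 8.34 to 28.5) and on chromosome 20 for 3 of 17 (17.6%, 6.19 to 41.0). On chromosome X it was 14 of 15 (93.3%, 70.2 to 98.8), on chromosome 4 it was 36 of 52 (69.2%, 55.7 to 80.1) and on chromosome 1 it was 33 of 54 (61.1%, 47.8 to 73.0). Among the 21 chromosomes with at least 10 narrow peaks, these 6 were the ones whose interval did not include the share over all narrow peaks. For ordinary peaks, which the rule left out, the intervals on these 6 chromosomes lay on the same side of their own share of 56.4%, and further chromosomes lay off it as well, such as 2 and 15 above and 3 and 22 below. They were on the curves in 63 of 454 cases on chromosome 8 (13.9%), in 40.0% of 693 on chromosome 5 and in 37.7% of 207 on chromosome 20, but in 92.9% of 85 on chromosome X, 79.2% of 390 on chromosome 4 and 68.5% of 603 on chromosome 1. Wide peaks made up 17.1% of the peaks on chromosome 8 and 8.20% on chromosome 20, against 1.56% on chromosome 4 and 2.81% on chromosome 1. Chromosomes 17 and 22 were less clear, as the intervals of their narrow peaks included the share over all narrow peaks. Chromosome 17 had 1.35% wide peaks, with 6 of 22 narrow (27.3%, 13.2 to 48.2) and 55.7% of 271 ordinary peaks on the curves. Chromosome 22 had 21.7% wide peaks and 4 of 6 narrow peaks on the curves. Its ordinary peaks followed the order, with 18 of 48 on the curves (37.5%, 25.2 to 51.6). A relation between wide peaks and these shares was not tested. The number of copies of each chromosome in this line was not measured here, and its part in these shares was not tested.

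**Figure D3:**
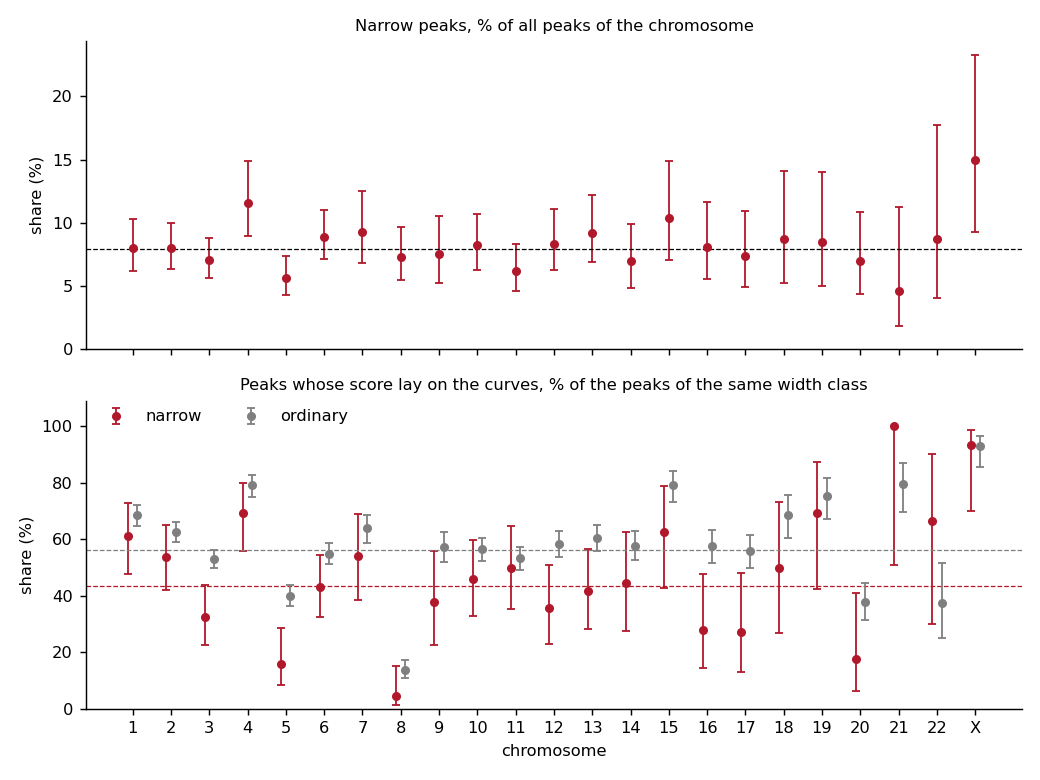
Above, the share of peaks that were narrow on each of the 23 chromosomes with at least 50 peaks. Below, the share of narrow (red) and ordinary (grey) peaks whose score lay within 0.02 of the curves. Points are shares in % and bars are Wilson 95% intervals. Dashed lines are the shares over all chromosomes, of the whole list above and of each width class below. Chromosomes 5, 8 and 20 lie low and chromosomes 1, 4 and X high in both classes of the lower plot.

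Lengths of chromosomes in hg19 were not at hand, so the distance to a chromosome end was measured to the outermost peak on either side. Within 1 Mb of these lay 11 of 821 narrow peaks (1.34%) and 178 of 8980 ordinary peaks (1.98%). The difference, narrow minus ordinary, was -0.642 percentage points (Newcombe 95% interval -1.31 to 0.435), and within 5 Mb it was -1.35 (-2.93 to 0.602). Both intervals included 0. None of the 48 outermost peaks was narrow, which allows a share of up to 6.25% (3 counts of 48) beside the 7.94% of the list, whereas 43 were ordinary and the other 5 wide. As a share of each class, outermost peaks made up 0% of narrow and 0.479% of ordinary peaks, a difference of -0.479 percentage points (-0.644 to 0.00288). This count was singled out after it had been seen. Without the outermost peaks the difference within 1 Mb was -0.171 (-0.822 to 0.898). On chromosomes other than the acrocentric ones, 4 of 717 narrow peaks (0.558%) lay between the start of the numbering and 1 Mb. For ordinary peaks it was 49 of 7890 (0.621%), a difference of -0.0632 percentage points (-0.458 to 0.818). The 4 narrow peaks were chr12:303433-304006, chr18:386991-387602, chr4:419983-420512 and chr2:597412-598036, with scores of 77.79, 77.79, 86.02 and 77.79. No narrow peak lay in the first 300 kb of any of these chromosomes. Along the span from first to last peak, narrow peaks had a median position of 50.9% (quartiles 25.5 and 73.3%), and ordinary peaks 50.9% (26.2 and 74.99%).

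The place of the centromere was approximated by the longest interval without a peak on each chromosome. From what is known of human chromosomes this interval sits at the centromere on 16 of 24 chromosomes, but not on 7, 8, 13, 14, 15, 18, 22 and X. Within 1 Mb of it lay 20 narrow peaks (2.44%) and 186 ordinary peaks (2.07%), a difference of 0.365 percentage points (95% interval -0.545 to 1.69). On the 16 chromosomes alone there were 12 of 611 narrow peaks (1.96%) and 140 of 6932 ordinary peaks (2.02%), a difference of -0.0556 (-0.966 to 1.41). Narrow peaks bordered the empty interval directly on 2 of these chromosomes. One was chrY:10037616-10038110 (495 bp, score 123.35), whose nearest peak was 3174 bp wide and 83.6 kb away, and the other was chr16:46600277-46600909 (633 bp, score 61.89), with an ordinary peak at 11.3 kb. Since the peaks on chromosome Y spanned only 3.48 Mb, the one on Y also lay 85.4 kb from an outermost peak. It was therefore counted as near a chromosome end as well.

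**Figure D4:**
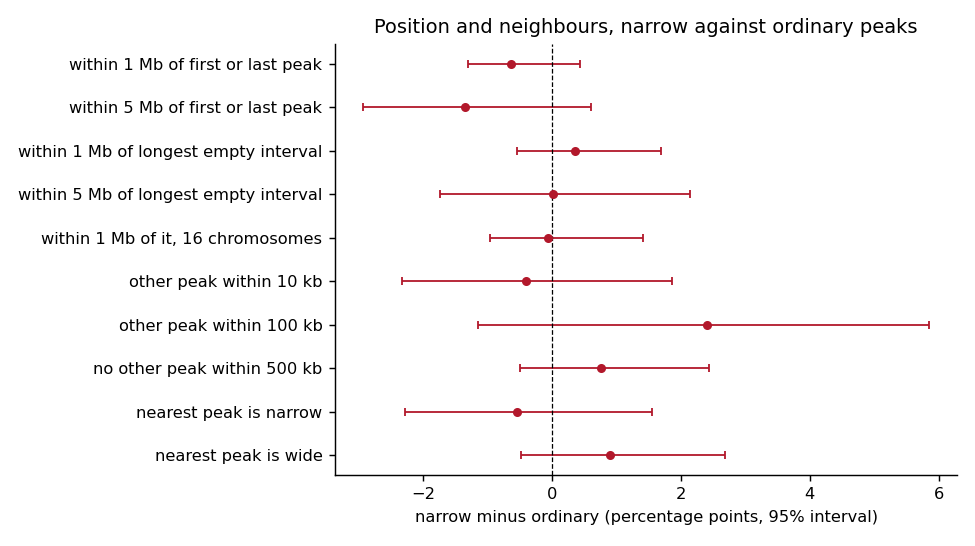
Share of narrow peaks minus share of ordinary peaks in percentage points (horizontal axis), for position and neighbours as named on the vertical axis. Points are differences and bars are Newcombe 95% intervals, and every interval includes 0.

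The surroundings of narrow peaks were compared with those of ordinary peaks, and every interval of a difference included 0. The nearest other peak was at a median distance of 75.7 kb from a narrow peak (95% interval 70.2 to 85.0) and of 79.2 kb from an ordinary peak (77.1 to 82.0). Another peak lay within 100 kb of 492 narrow peaks (59.9%) and of 5166 ordinary peaks (57.5%), a difference of 2.40 percentage points (-1.14 to 5.85). Within 10 kb the shares were 9.38% and 9.79%, a difference of -0.410 (-2.33 to 1.86). The median number of other peaks within 500 kb on either side was 4 in both classes. No other peak lay within 500 kb of 36 narrow peaks (4.38%) and of 325 ordinary peaks (3.62%), a difference of 0.766 (-0.502 to 2.43).

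**Figure D5:**
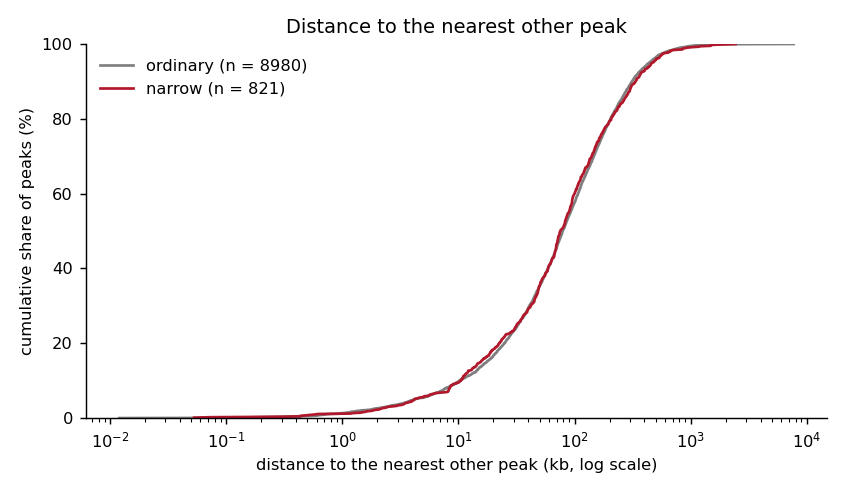
Cumulative share of peaks in % (vertical axis) by distance to the nearest other peak in kb (horizontal axis, log scale), for 821 narrow peaks in red and 8980 ordinary peaks in grey. The 2 lines run close together, with medians of 75.7 and 79.2 kb.

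The width of the nearest peak was compared in the same way. The nearest peak was itself narrow for 63 narrow peaks (7.67%) and for 738 ordinary peaks (8.22%), a difference of -0.545 percentage points (-2.28 to 1.55). It was wide for 42 narrow peaks (5.12%) and 378 ordinary peaks (4.21%), a difference of 0.906 (-0.473 to 2.68). On chromosome 5, where 16.1% of all peaks were wide, 10 of 50 narrow peaks (20%) had a wide peak as nearest neighbour, and on chromosome 8, where 17.1% were wide, it was 6 of 44 (13.6%). In order along the chromosomes, 708 narrow peaks had no narrow peak directly before or after them, while 49 pairs and 5 runs of 3 followed each other without a wider peak between. Successive narrow peaks were separated by a median of 2.07 Mb (quartiles 0.821 and 4.71 Mb), and 30 of 797 such distances were under 100 kb.

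The closest pair of narrow peaks was chr12:91840259-91840911 (653 bp, score 51.75) and chr12:91841351-91841931 (581 bp, score 94.16), 439 bp apart. Next came chr4:175501726-175502403 and chr4:175506341-175506920, 3.94 kb apart with scores of 69.82 and 101.14, and a pair on chromosome 9 from 119628017 to 119637563, 8.25 kb apart with scores of 69.11 and 56.27. The remaining pairs were at least 10954 bp apart. Closer neighbours of ordinary width were found for chr2:52405328-52406025, which was 53 bp from a peak of 965 bp, and for chr18:12217493-12218189, which was 74 bp from a peak of 1229 bp. In all, 9 narrow peaks had another peak within 1 kb. The most isolated narrow peak, chr9:14661484-14662126 (643 bp, score 62.13), was 2.44 Mb from any other peak. Windows of 5 Mb held at most 6 narrow peaks, which was the number on chromosome 8 from 135000001 to 140000000 (43 peaks in all) and on chromosome 9 from 30000001 to 35000000 (30 peaks in all).

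Within narrow peaks, the share on the curves fell as the number of nearby peaks rose, while the intervals of the median distances overlapped. The 358 narrow peaks on the curves had their nearest neighbour at a median of 87.4 kb (95% interval 74.2 to 102) and a median of 3 other peaks within 500 kb, while the 463 off the curves had 69.8 kb (61.5 to 80.0) and 5 other peaks. Of narrow peaks with at most 2 others within 500 kb, 126 of 226 (55.8%, Wilson 95% interval 49.2 to 62.1) lay on the curves, falling to 46.5% of 329 with 3 to 5 others, 31.1% of 209 with 6 to 8 others and 24.6% of 57 with 9 or more (15.2 to 37.1). In ordinary peaks the median distance was 87.1 kb on the curves (83.3 to 91.3) and 71.5 kb off them (68.9 to 74.1). These intervals did not overlap. The shares of ordinary peaks on the curves had the same order as those of narrow peaks, from 67.5% of 2290 to 42.0% of 615. The levels of the input library behind these shares are not in the list, and their part was not tested. The share on the curves also differed between chromosomes. No comparison within chromosomes was made, so chromosome and number of nearby peaks cannot be told apart here. The 62 peaks under 500 bp had their nearest neighbour at a median of 129 kb (72.0 to 189), against 61.4 kb (47.6 to 71.6) for the 214 peaks of 500 to under 600 bp and 81.7 kb (72.4 to 90.7) for the 545 peaks of 600 to under 700 bp. This distance did not change in one direction with width.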

How the data were processed

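The authors deposited 1 peak list without a header, with a start, an end and a score for each peak. The notes of the submitters name Bowtie2 2.1.0 and hg19, and the peak names identify the caller as MACS, whose version and handling of duplicates are not given in the sources used here. The score, used as deposited, was taken to be the p-value on a scale of -10 x log10, since its lowest value was 50. A design text about pericardial RNA does not match the labels and was not used.

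The members were chosen, and the lists and comparisons set, with earlier results of these data known. Positions are printed with 1 added to the deposited start. Distances between peaks run from edge to edge, all others from midpoints. With 1 library of each kind no test was run. Shares carry Wilson and differences of shares Newcombe 95% intervals, and medians carry intervals from order statistics. The rate of the Poisson curves was the one with the most narrow peaks within 0.02 of the level curves. The width, from 600 to 800 bp, was then the one with the most peaks under 1500 bp within 0.02. Peaks named were the 10 highest scores, the 5 narrowest and the closest pairs of narrow peaks; the repeated scores, the peaks bordering empty intervals, those near the start of the numbering and the most isolated one were chosen after their values were seen. The depth is unknown. Functions were tested on simulated data. Python 3.11.15, numpy 2.4.6, pandas 2.3.3, scipy 1.17.1 and matplotlib 3.10.9 were used. Of the planned results, 6 that need a genome or annotation in hg19 were not run, and gene lists were not used.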

Additional observations from a re-analysis of the deposited data

How the results depend on the processing

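Of 41 alternatives over 8 results, 31 gave a value within the 95% interval of the reported one. In all 24 alternatives on ends, centromeres and neighbours, the interval of the difference included 0. A width limit of 600 bp gave a narrow share of 2.67%, a median score of 83.5 beside 58.1 in all wider peaks under 1500 bp, a median distance of 69.3 kb to the next peak and 35.1% of narrow peaks on the curves. Peaks with a score of at least 60 gave a narrow share of 13.8%, with 54.6% of narrow peaks on the curves. Narrow peaks then had a median score of 71.9 beside 68.5 in ordinary peaks (69.8 beside 57.7 in the whole list). Their median distance to the next peak was 168 kb beside 173 kb in ordinary peaks (75.7 beside 79.2 kb in the whole list). This score limit kept 652 narrow peaks (79.4%) and 3687 ordinary peaks (41.1%). The cause of the other changes was not tested. With a limit of 5 Mb the difference near chromosome ends was -1.35 percentage points. A width limit of 500 bp gave a median distance of 129 kb. That limit, the curves, the end and centromere variants and the list without wide peaks were chosen after the data had been seen. The gap between the chromosomes with the highest and lowest narrow share was 10.4 percentage points, and 3.85 to 14.5 under its alternatives. It is given without an interval, since these chromosomes were picked as the extremes. Gene overlap, start sites, base composition, repeats and the half-site were not analysed here under any setting. No paired analysis was possible because the series holds 1 library of each kind. Neither the depth nor the spread between replicates is known for any width or score.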
